A study of Homo sapiens with 10 samples.

Results

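The genes described here are 47 mRNAs of the actin cytoskeleton and of cell adhesion, taken by gene symbol (GENCODE release 29) from a count table of 94946 entries, of which 45574 carry GENCODE identifiers. All 47 were found, and all 47 had counts in each of the 10 libraries. The libraries are total RNA sequencing of extracellular vesicles (EVs), membrane-bound particles shed by cells, and of whole cells of PC3, an established human line of prostate cancer epithelial cells. The vesicles were pelleted by centrifugation at 3 settings (EV 2.8K, EV 10K and EV 100K), whose unit the labels leave out. There are 3 libraries per pellet, called sets 1, 2 and 3, and the whole cells, untreated like the cells that shed the vesicles as far as the labels say, have 1 library. The cells were grown in DMEM with fetal bovine serum. Whether the sets are separate cultures is not said, so p-values here cover the spread between these libraries, which may be technical. All levels here are relative to the other RNA of a library, so a fall need not mean a smaller absolute amount. In bulk pellets, fewer particles that carry an mRNA, less of that mRNA per particle and more of other RNA cannot be told apart.

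Actin is a globular protein whose monomers assemble into filaments, and it is among the most abundant proteins of animal cells. Monomer-binding proteins (thymosins, profilins, cofilins) control how much actin is free to assemble, the Arp2/3 complex starts branches on existing filaments, capping protein stops growth at the fast-growing end, and crosslinkers such as the alpha-actinins and filamin A tie filaments into bundles and networks. Non-muscle myosin II pulls on these filaments, and talin, vinculin and zyxin couple them to integrins at adhesion sites. Membrane shedding from the cell surface involves this cortical network, and actin and its partners are commonly found among the proteins of vesicles.

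The members included pairs of paralogs whose mRNAs are alike in sequence but behaved differently across the pellets. The first 90 coding bases of ACTB (beta-actin, ENSG00000075624.14) and ACTG1 (gamma-actin, ENSG00000184009.11), the 2 cytoplasmic actins, are shown because the balance between these mRNAs differed between pellets. The same stretch is shown for TMSB4X and TMSB10, the thymosins beta-4 and beta-10, whose ratio did not pass the test. The sequences are those of the GENCODE 29 transcripts on GRCh38, 5′ to 3′ on the coding strand, and capitals mark the bases at which the members of a pair differ, which are 17 of 90 between the actins and 22 of 90 between the thymosins. The stretches lie at chr7:5529568-5529657 on the minus strand (ACTB), chr17:81512265-81512354 on the minus strand (ACTG1), chrX:12976262-12976351 on the plus strand (TMSB4X) and chr2:84906018-84906107 on the plus strand (TMSB10), each within 1 coding exon.
ACTB: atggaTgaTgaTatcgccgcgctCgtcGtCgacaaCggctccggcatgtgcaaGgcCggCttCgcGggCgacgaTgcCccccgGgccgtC
ACTG1: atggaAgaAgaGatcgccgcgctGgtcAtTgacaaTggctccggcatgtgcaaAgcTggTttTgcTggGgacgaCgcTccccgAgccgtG
TMSB4X: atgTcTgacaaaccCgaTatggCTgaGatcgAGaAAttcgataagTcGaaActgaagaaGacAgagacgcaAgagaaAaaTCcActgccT
TMSB10: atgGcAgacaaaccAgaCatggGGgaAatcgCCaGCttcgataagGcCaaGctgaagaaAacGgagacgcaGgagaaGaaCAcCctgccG
Over the whole coding sequence ACTB and ACTG1 were 91.3% identical, and their longest identical run was 59 bases. TMSB4X and TMSB10 were 73.9% identical, with a longest identical run of 10 bases.

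Total counts ranged from 5424964 to 28735081 per library, and the smallest count of any member in any library was 9. How reads with several mapping places, and strand, were handled is unknown here, so counts of genes with near-identical copies or overlapping exons are uncertain. Of the members, 20 have pseudogene entries named after their own symbol, and pseudogenes with other names were not counted. These entries held over 1% of the member's own counts for 7 of them (TMSB4X 12.3%, TPM3 6.47%, ARPC3 5.11%, TAGLN2 4.63%, MSN 2.01%, MYL12A 1.75% and PFN1 1.04%). Of the members, 21 share exon sequence with another gene of the table. Markers of PC3 and epithelial cells (KRT8, KRT18, KRT19, EPCAM, CD44, VIM and LGALS1, 7 of 7 with counts in each pellet) summed to 2837 to 3685 CPM (counts relative to a library total of 1000000, with TMM scaling) in EV 2.8K, 2274 to 2910 in EV 10K, 1030 to 1244 in EV 100K and 2199 in the cells. KLK3, which PC3 is known to lack, had 0 counts in all 10 libraries. Muscle markers, including the 4 muscle actins, summed to at most 5.51 CPM, and fibroblast markers to at most 43.5 CPM (in EV 2.8K set 1). Mitochondrially encoded RNA took 7.53 ± 4.63% in EV 2.8K (12.9% in set 1 and 4.92 and 4.81% in the others), then 0.954 ± 0.114% in EV 10K and 0.00645 ± 0.00138% in EV 100K (mean ± SD, n = 3 each), against 2.88% of all counts in the cells. The epithelial markers move with the results below, and their part in them was not tested. With the mitochondrially encoded genes left out of the fit, 32 members were lower and 2 higher in EV 100K against EV 2.8K, as with them. With EV 2.8K set 1 left out, 31 were lower and 3 higher.

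The mRNAs of the actin cytoskeleton took a smaller share of the RNA the higher the centrifugation setting. Their share of all counts was 2.64 ± 0.135% in EV 2.8K, then 1.96 ± 0.156% in EV 10K and 1.02 ± 0.143% in EV 100K (mean ± SD, n = 3 each), against 3.22% in the cell library (95% Wilson interval 3.21 to 3.23%, counting error only). The single EV 2.8K libraries held 2.80, 2.57 and 2.55%, the EV 10K libraries 1.79, 1.98 and 2.10%, and the EV 100K libraries 0.861, 1.14 and 1.05%, so the 3 pellets did not overlap. Of the members' counts, ACTB alone contributed 18.7 ± 0.929% in EV 2.8K, then 16.2 ± 1.10% in EV 10K and 7.42 ± 1.02% in EV 100K, against 23.4% in the cells. Without ACTB, the other members held 2.15 ± 0.0851, 1.64 ± 0.110 and 0.941 ± 0.122% of counts in the pellets in the same order, against 2.47% in the cells.

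The shares of the role groups took different courses along the pellets. As shares of all counts, the crosslinkers held 0.504 ± 0.0717% in EV 2.8K, then 0.229 ± 0.0110% in EV 10K and 0.0966 ± 0.0239% in EV 100K (mean ± SD, n = 3 each), against 0.705% in the cells. The monomer-binding group held 0.368 ± 0.0244, 0.311 ± 0.0290 and 0.0927 ± 0.0185%, against 0.298% in the cells, so that its share in EV 10K overlapped neither EV 2.8K nor EV 100K but lay much closer to EV 2.8K. The Arp2/3 complex and coronins, by contrast, held 0.135 ± 0.0239% in EV 2.8K, then 0.179 ± 0.00449% in EV 10K and 0.169 ± 0.0103% in EV 100K, against 0.157% in the cells. The summed share was lowest in EV 2.8K (0.108 to 0.151%), below EV 10K (0.174 to 0.183%) and EV 100K (0.162 to 0.181%) without overlap. The genes in this sum went both ways in EV 100K against EV 2.8K, with a median log2 fold change of -0.84. Of the 11, 4 (36.4%) were lower and 2 (18.2%, CORO1C and ARPC1A, described below) higher at an edgeR adjusted p below 0.05. Of all genes tested, 13.8% were lower and 12% higher. For abundant protein-coding genes (a mean of at least 20 CPM) these shares were 25.6% and 20.2%, so the group's share higher was near that background. No test was made of these sums.

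**Figure D1:**
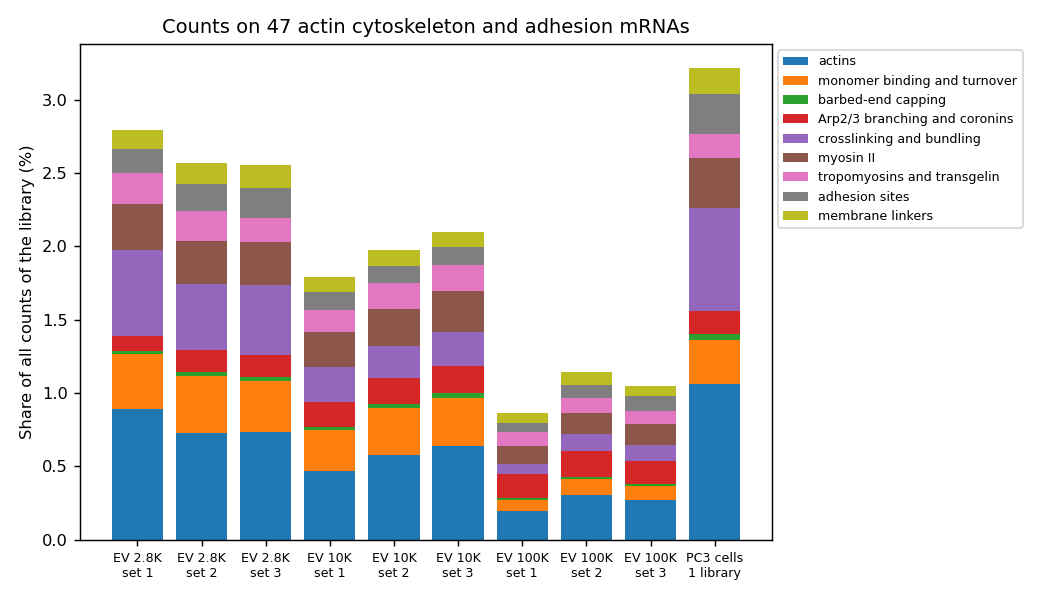
Stacked bars give the share of all counts (%, y axis) that fell on the 47 members in each of the 10 libraries (x axis), split by the 9 role groups. The stacks stand at 2.55 to 2.80% in EV 2.8K, 1.79 to 2.10% in EV 10K, 0.861 to 1.14% in EV 100K and 3.22% in PC3 cells. The Arp2/3 and coronin segment spans 0.108 to 0.151% in EV 2.8K and 0.162 to 0.181% in EV 100K.

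Ranked by CPM per kilobase of exon among 19969 protein-coding genes, TMSB10 stood at rank 13 in EV 2.8K, then 8 in EV 10K and 75 in EV 100K, against 28 in the cells. ACTB stood at rank 15, 20 and 107 in the pellets, against 5 in the cells. ACTG1 kept about the same place in every group, at rank 22, 23 and 19 in the pellets, against 21 in the cells. Of the 47 members, 20 were among the 500 highest genes in EV 2.8K, then 18 in EV 10K and 10 in EV 100K, against 20 in the cells. The lowest member in each pellet was MYL9, a myosin light chain of smooth muscle type, with 3.50 ± 1.47 CPM per kilobase in EV 2.8K, then 2.99 ± 0.565 in EV 10K and 1.15 ± 0.624 in EV 100K (mean ± SD, n = 3 each), against 4.41 in the cells, where TPM2 was lowest, at 2.85.

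Between the pellets at the 2 ends of the series, most members were lower at the higher setting. In EV 100K against EV 2.8K, 32 of 47 members were lower and 2 were higher at an adjusted p below 0.05 (edgeR's quasi-likelihood test, Benjamini-Hochberg adjustment over 15525 genes), and 13 did not pass. Of all genes tested, 13.8% were lower and 12% higher, and of the 6865 protein-coding genes with a mean of at least 20 CPM, 25.6% were lower and 20.2% higher. The members' median log2 fold change was -1.09, against -0.06 over all genes tested, and 42 of 47 had a value below 0. Every EV 100K library lay below every EV 2.8K library for 35 members and above for 2, whereas 21.6% and 22.8% of genes with at least 100 counts were separated in these ways. The members were chosen with earlier results of these data known.

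**Figure D2:**
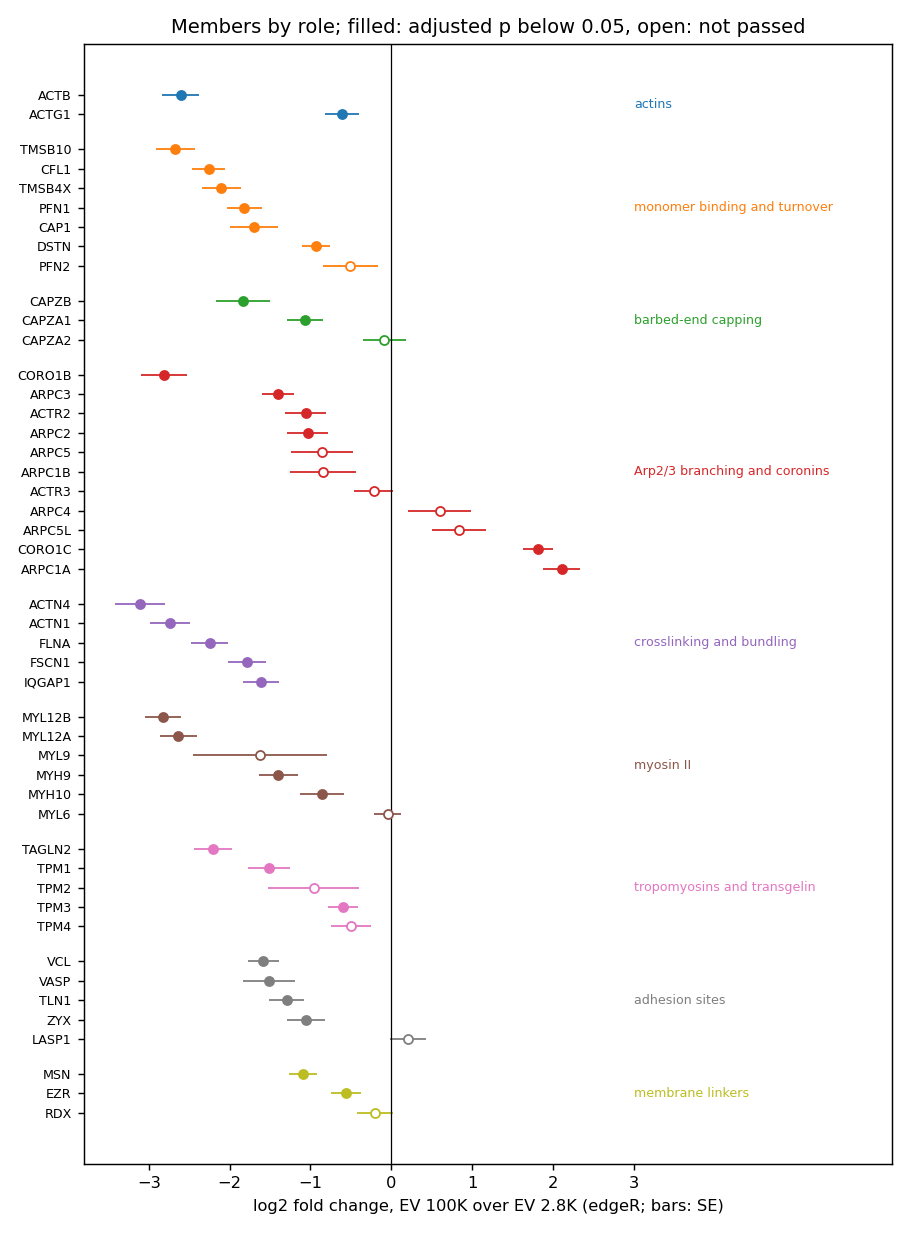
Points give the log2 fold change of EV 100K over EV 2.8K for each of the 47 members (rows, grouped and coloured by role), with bars for the standard error. Filled points passed an adjusted p below 0.05, and all crosslinkers are filled at -3.10 to -1.61, while ARPC1A and CORO1C are the filled points right of 0, at 2.11 and 1.81.

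Of the 2 cytoplasmic actins, beta-actin fell far more than gamma-actin. ACTB (chr7:5527147-5563784, minus strand, GRCh38) had CPM of 6274, 4162 and 4098 in EV 2.8K, 2937, 3179 and 3755 in EV 10K and 613, 932 and 872 in EV 100K, against 6218 in the cells. All EV 100K libraries were below all others, and EV 10K lay below EV 2.8K without overlap. Its log2 fold change in EV 100K against EV 2.8K was -2.61 ± 0.22 (SE, edgeR adjusted p = 1.66e-07), 6.09-fold lower. ACTG1 (chr17:81509971-81523847, minus strand) had CPM of 3876, 2368 and 2403 in EV 2.8K, 2132, 2598 and 2813 in EV 10K and 1619, 2092 and 2023 in EV 100K, against 2576 in the cells. EV 100K lay below EV 2.8K without overlap, whereas EV 10K overlapped EV 2.8K. Its log2 fold change in EV 100K against EV 2.8K was -0.61 ± 0.21 (SE, edgeR adjusted p = 0.0396), a call lost in 8 of 17 alternatives (adjusted p up to 0.189), namely with RLE normalization, in the fit on the 6 libraries compared, and without EV 2.8K set 1, EV 10K set 2 or 3, or any 1 EV 100K library.

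Of the mRNAs of proteins that bind actin monomers or turn filaments over, 6 of 7 were lower in EV 100K compared with EV 2.8K, with a median log2 fold change of -1.82. TMSB10, a thymosin that holds actin monomers, had CPM of 1357, 921 and 647 in EV 2.8K, 739, 721 and 683 in EV 10K and 137, 177 and 151 in EV 100K, against 312 in the cells. Every EV 100K library was below all others, and EV 10K overlapped EV 2.8K. Its log2 fold change in EV 100K against EV 2.8K was -2.67 ± 0.24 (SE, edgeR adjusted p = 2.77e-07). CFL1, cofilin 1, which severs filaments, followed at -2.26, TMSB4X at -2.10, PFN1, profilin 1, which feeds monomers to growing ends, at -1.82, and CAP1, a cyclase-associated protein that recycles monomers, at -1.69. DSTN, the cofilin relative destrin, fell less, by 0.93 on the log2 scale (edgeR adjusted p = 0.000607). PFN2, the profilin best known from neurons, did not pass (log2 fold change -0.51, adjusted p = 0.321).

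Capping protein is a dimer of an alpha and a beta subunit that blocks the barbed, fast-growing end of filaments. CAPZA1, an alpha subunit, had CPM of 87.8, 104 and 117 in EV 2.8K, 110.5, 111.3 and 111.5 in EV 10K and 43.2, 51.3 and 55.2 in EV 100K, against 153 in the cells. The EV 100K libraries were the lowest and did not overlap the other pellets, which overlapped each other. CAPZA1 fell by 1.07 on the log2 scale in EV 100K against EV 2.8K (SE 0.23, edgeR adjusted p = 0.00173), and CAPZB, the beta subunit, by 1.83 (SE 0.33, adjusted p = 0.000421). The second alpha subunit, CAPZA2, did not pass, with 56.8 ± 10.0 CPM in EV 100K and 59.5 ± 3.74 CPM in EV 2.8K (SD, n = 3 each; log2 fold change -0.09, adjusted p = 0.867).

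The Arp2/3 complex and the coronins, proteins that bind the complex or its branches, held both called exceptions. ARPC1A (ENSG00000241685.9, chr7:99325910-99366262, plus strand), 1 of the 2 forms of the ARPC1 subunit, had CPM of 41.6, 51.1 and 60.0 in EV 2.8K, 111, 147 and 123 in EV 10K and 257, 196 and 216 in EV 100K, against 35.9 in the cells. The pellets stood apart in the order of their settings, and all 9 EV libraries were above the cell library. Its log2 fold change in EV 100K against EV 2.8K was 2.11 ± 0.23 (SE, edgeR adjusted p = 2.21e-06), 4.31-fold higher. Of its exon bases, 58.4% are also annotated to a read-through gene, AC004922.1, which had 22 counts in all libraries together, and how reads in shared exons were counted is unknown here.

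CORO1C (ENSG00000110880.10, chr12:108645109-108731596, minus strand), a coronin of the cell cortex, had CPM of 251, 315 and 266 in EV 2.8K, 917, 688 and 738 in EV 10K and 1053, 984 and 933 in EV 100K, against 329 in the cells. The pellets stood apart in the order of their settings, and all EV 10K and EV 100K libraries were above the cell library. Its log2 fold change in EV 100K against EV 2.8K was 1.81 ± 0.19 (SE, edgeR adjusted p = 1.33e-06), 3.52-fold higher. Its relative CORO1B (chr11:67435510-67443821, minus strand) went the other way, with CPM of 139, 190 and 189 in EV 2.8K, 79.5, 95.4 and 133 in EV 10K and 17.9, 25.2 and 32.1 in EV 100K, against 72.9 in the cells. No pellet overlapped another, and CORO1B fell by 2.81 on the log2 scale in EV 100K against EV 2.8K (SE 0.29, edgeR adjusted p = 1.07e-06), 7.02-fold lower. Of the exon bases of CORO1B, 24.3% are also annotated to PTPRCAP on the same strand, which had 0 counts in all libraries together.

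The protein products of the other subunits of the Arp2/3 complex assemble in fixed proportion, and their mRNAs had log2 fold changes from -1.40 to 0.84 in EV 100K against EV 2.8K. ARPC3 (-1.40), the actin-related protein ACTR2 (-1.06) and ARPC2 (-1.04) were lower in EV 100K compared with EV 2.8K, with adjusted p of 3.88e-05, 0.00433 and 0.00509 in edgeR's test. ACTR3, the other actin-related protein, did not pass, at 125 ± 6.94 CPM in EV 100K and 143 ± 44.0 CPM in EV 2.8K (SD, n = 3 each; log2 fold change -0.22, adjusted p = 0.581). ARPC5L had CPM of 130, 60.5 and 37.7 in EV 2.8K, 87.1, 113 and 95.9 in EV 10K and 151, 150.1 and 112 in EV 100K, against 68.7 in the cells. The EV 2.8K libraries were widely spread and overlapped EV 100K, and ARPC5L did not pass (log2 fold change 0.84, adjusted p = 0.0725). It passed in 4 of 17 alternatives, 1 of which left out EV 2.8K set 1. ARPC4 had CPM of 17.8, 21.1 and 44.1 in EV 2.8K, 25.8, 39.9 and 29.8 in EV 10K and 29.1, 48.9 and 49.9 in EV 100K, against 28.1 in the cells. These ranges overlapped, and ARPC4 did not pass (log2 fold change 0.60, adjusted p = 0.312), while ARPC5 (-0.86, adjusted p = 0.116) and ARPC1B (-0.84, adjusted p = 0.143) were below 0 without passing. In 1 of 17 alternatives each, ARPC4 passed without EV 2.8K set 3 (edgeR adjusted p = 0.0437) and ARPC5 without EV 2.8K set 1 (0.0203).

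All 5 crosslinkers were lower in EV 100K against EV 2.8K at an adjusted p below 0.05, with a median log2 fold change of -2.25. No other role group of more than 2 members passed in full. Values below 0 in every member were also found for the monomer-binding, capping, myosin II, tropomyosin and transgelin, and membrane linker groups. ACTN4, alpha-actinin 4 (chr19:38647649-38731583, plus strand), had CPM of 1119, 485 and 558 in EV 2.8K, 281, 227 and 282 in EV 10K and 55.4, 101 and 98.5 in EV 100K, against 762 in the cells. The 3 pellets did not overlap, and EV 2.8K set 1 was well above the others of its group. ACTN4 had the lowest log2 fold change of all members, -3.10 ± 0.31 (SE, edgeR adjusted p = 1.01e-06), 8.60-fold lower. ACTN1, alpha-actinin 1, had CPM of 1672, 852 and 872 in EV 2.8K, 466, 404 and 449 in EV 10K and 153, 184 and 178 in EV 100K, against 1222 in the cells, with no overlap between pellets (log2 fold change -2.74 ± 0.25, SE, adjusted p = 2.79e-07).

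FLNA, filamin A, which links filaments at wide angles and to the membrane (chrX:154348524-154374638, minus strand), had CPM of 2557, 1821 and 1947 in EV 2.8K, 882, 770 and 863 in EV 10K and 305, 495 and 550 in EV 100K, against 3164 in the cells. No pellet overlapped another, and the cell library was above all 9. FLNA fell by 2.25 on the log2 scale in EV 100K against EV 2.8K (SE 0.23, edgeR adjusted p = 9.63e-07), FSCN1, fascin, the bundler of filopodia, by 1.78 (adjusted p = 1.69e-05) and IQGAP1, a scaffold that binds filaments, by 1.61 (adjusted p = 2.13e-05).

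Non-muscle myosin II is built of heavy chains (MYH9, MYH10), essential light chains (MYL6) and regulatory light chains (MYL12A, MYL12B, MYL9), and of these mRNAs MYL12B had the lowest and MYL6 the highest log2 fold change in EV 100K against EV 2.8K. MYL12B (chr18:3261479-3278431, plus strand) had CPM of 454, 315 and 310 in EV 2.8K, 239, 326 and 333 in EV 10K and 48.8, 51.1 and 54.7 in EV 100K, against 230 in the cells. All EV 100K libraries were far below all others, and EV 10K overlapped EV 2.8K. Its log2 fold change in EV 100K against EV 2.8K was -2.82 ± 0.22 (SE, edgeR adjusted p = 7.53e-08), 7.08-fold lower, and its neighbour MYL12A fell by 2.63 (adjusted p = 1.97e-07). Their coding sequences were 95.2% identical, with an identical run of up to 77 bases, so their counts may share reads.

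MYL6 (chr12:56158161-56163496, plus strand), the essential light chain, had CPM of 795, 820 and 684 in EV 2.8K, 969, 1021 and 1066 in EV 10K and 770, 769 and 721 in EV 100K, against 451 in the cells. EV 100K lay within the range of EV 2.8K, EV 10K was above both, and all 9 EV libraries were above the cell library. The log2 fold change in EV 100K against EV 2.8K was -0.05 ± 0.17 (SE, edgeR adjusted p = 0.895). Both heavy chains fell, MYH9 by 1.40 on the log2 scale (adjusted p = 0.000253) and MYH10 by 0.86 (adjusted p = 0.0268, and 0.0678 to 0.119 without EV 2.8K set 2 or 3 or EV 100K set 1 or 2). MYL9, at 3.25 ± 1.76 CPM in EV 100K and 9.89 ± 4.14 CPM in EV 2.8K (SD, n = 3 each), did not pass (adjusted p = 0.172).

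**Figure D3:**
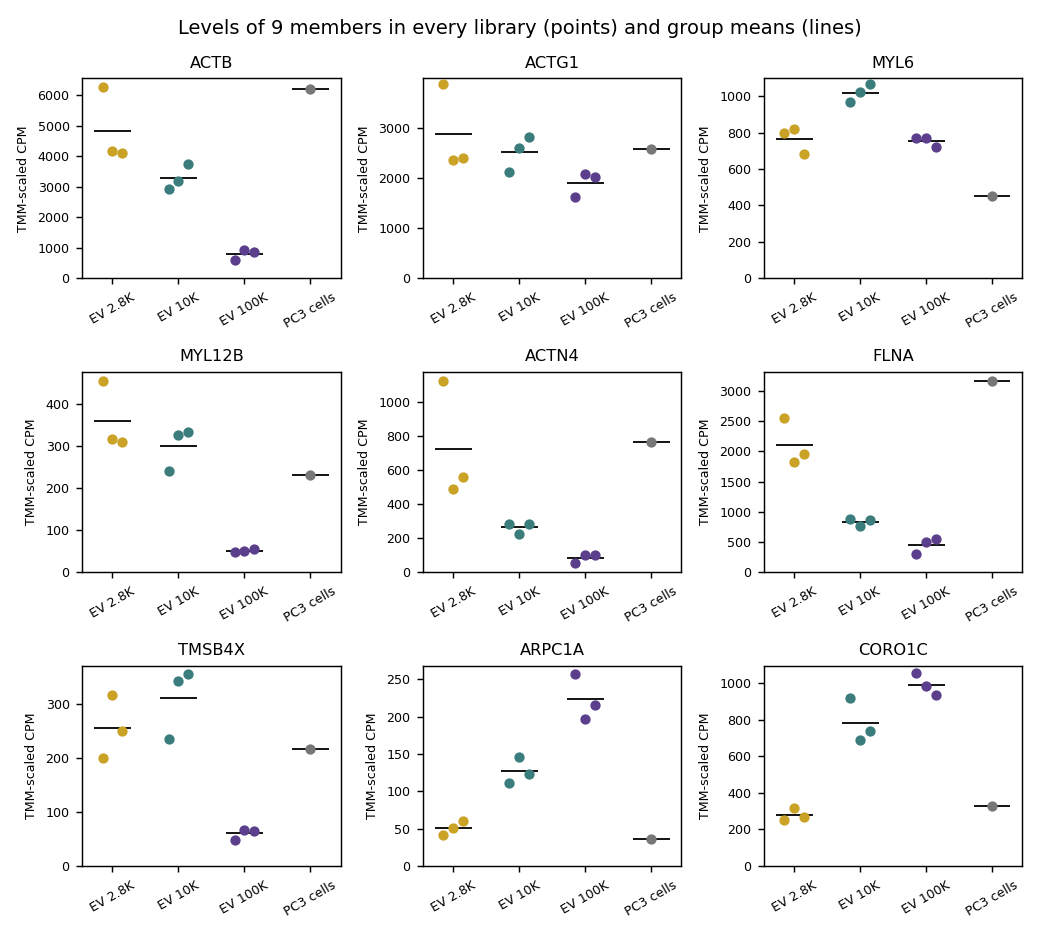
Each panel gives the level of 1 member (TMM-scaled CPM, y axis from 0) in every library, as points by group, with a line at the group mean. ACTB falls to 613 to 932 CPM in EV 100K while ACTG1 stays at 1619 to 2092, MYL12B is at 48.8 to 54.7 in EV 100K while MYL6 is at 721 to 770, and ARPC1A and CORO1C are highest in EV 100K.

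Among the tropomyosins, rod proteins that run along filaments, and the filament binder transgelin 2, TAGLN2 changed most. TAGLN2 had CPM of 632, 521 and 404 in EV 2.8K, 364, 458 and 466 in EV 10K and 83.5, 137 and 121 in EV 100K, against 446 in the cells. The EV 100K libraries were below all others, and the slower pellets overlapped. It fell by 2.21 on the log2 scale in EV 100K against EV 2.8K (SE 0.23, edgeR adjusted p = 1.45e-06), TPM1 by 1.52 (adjusted p = 0.000243) and TPM3 by 0.60 (adjusted p = 0.0245, and 0.0613 to 0.135 in the fit on the 6 libraries compared or without EV 2.8K set 1 or 2, EV 10K set 2 or 3, or EV 100K set 2 or 3). TPM4 (-0.50, adjusted p = 0.151) and the low TPM2 (-0.96, adjusted p = 0.247) did not pass.

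At adhesion sites, 4 of 5 members were lower in EV 100K compared with EV 2.8K. ZYX, zyxin, a sensor of tension at adhesions, had CPM of 357, 305 and 403 in EV 2.8K, 365, 292 and 380 in EV 10K and 116, 169 and 234 in EV 100K, against 388 in the cells. EV 100K lay below the other pellets, which overlapped nearly completely. ZYX fell by 1.06 on the log2 scale (SE 0.24, edgeR adjusted p = 0.00239), VCL, vinculin, which braces the link between talin and actin, by 1.59 (adjusted p = 7.06e-06), VASP, a promoter of filament growth, by 1.51 (adjusted p = 0.00156), and TLN1, talin 1, which binds integrin tails, by 1.30 (adjusted p = 0.000185). LASP1, an actin-binding LIM protein, did not pass, at 304 ± 47.7 CPM in EV 100K and 260 ± 80.2 CPM in EV 2.8K (SD, n = 3 each; log2 fold change 0.20, adjusted p = 0.585).

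Ezrin, radixin and moesin are 3 related proteins that tie the cortex to the plasma membrane. MSN, moesin, had CPM of 1054, 889 and 936 in EV 2.8K, 712, 692 and 810 in EV 10K and 411, 490 and 468 in EV 100K, against 1049 in the cells. The pellets did not overlap, and MSN fell by 1.09 on the log2 scale in EV 100K against EV 2.8K (SE 0.18, edgeR adjusted p = 0.000129). EZR, ezrin, fell by 0.56 (adjusted p = 0.0377), a call lost in 10 of 17 alternatives (adjusted p up to 0.191), among them the removal of any 1 EV 100K library, of EV 2.8K set 2 or 3 and of EV 10K set 2 or 3. RDX, radixin, did not pass (log2 fold change -0.20, adjusted p = 0.592).

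Ratios of paralog counts within a library do not depend on how libraries are scaled. The pairs were drawn from members chosen with earlier results of these data known. Of 15 pairs tested between the 3 pellets with an exact two-sided permutation test over 1680 assignments of the 9 EV libraries, 4 passed, each with p = 0.00357, the smallest this design allows, and an adjusted p of 0.0134 over the 15 pairs. The ACTB/ACTG1 ratio was 1.62, 1.76 and 1.70 in EV 2.8K, 1.38, 1.22 and 1.33 in EV 10K and 0.379, 0.446 and 0.431 in EV 100K, against 2.41 in the cells. Beta-actin counts thus exceeded gamma-actin counts in the cells and both slower pellets, and were below them in all 3 EV 100K libraries.

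The CORO1B/CORO1C ratio was 0.623 ± 0.0812 in EV 2.8K, then 0.135 ± 0.0472 in EV 10K and 0.0256 ± 0.00873 in EV 100K (mean ± SD, n = 3 each), against 0.221 in the cells. CORO1B shares 24.3% of its exon bases with PTPRCAP. The ARPC1A/ARPC1B ratio was 1.86 ± 0.763, 5.70 ± 1.11 and 14.1 ± 5.01 in the pellets in the same order, against 3.0 in the cells. This pair shares the overlap with AC004922.1, which also covers 32.4% of the exon bases of ARPC1B. The CFL1/DSTN ratio was 1.83 ± 0.530, 1.23 ± 0.180 and 0.722 ± 0.0660, against 1.76 in the cells. In each of these 4 pairs no 2 pellets overlapped.

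The other 11 pairs did not pass, among them MYL12A/MYL12B (1.19 ± 0.109 in EV 100K against 1.08 ± 0.223 in EV 2.8K, SD, n = 3 each; exact permutation adjusted p = 0.471) and TMSB4X/TMSB10 (0.390 ± 0.0363 in EV 100K against 0.293 ± 0.127 in EV 2.8K; exact permutation adjusted p = 0.317). ACTN1/ACTN4 (exact permutation adjusted p = 0.0964) and CAPZA1/CAPZA2 (0.0995) had unadjusted p of 0.0321 and 0.0464.

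**Figure D4:**
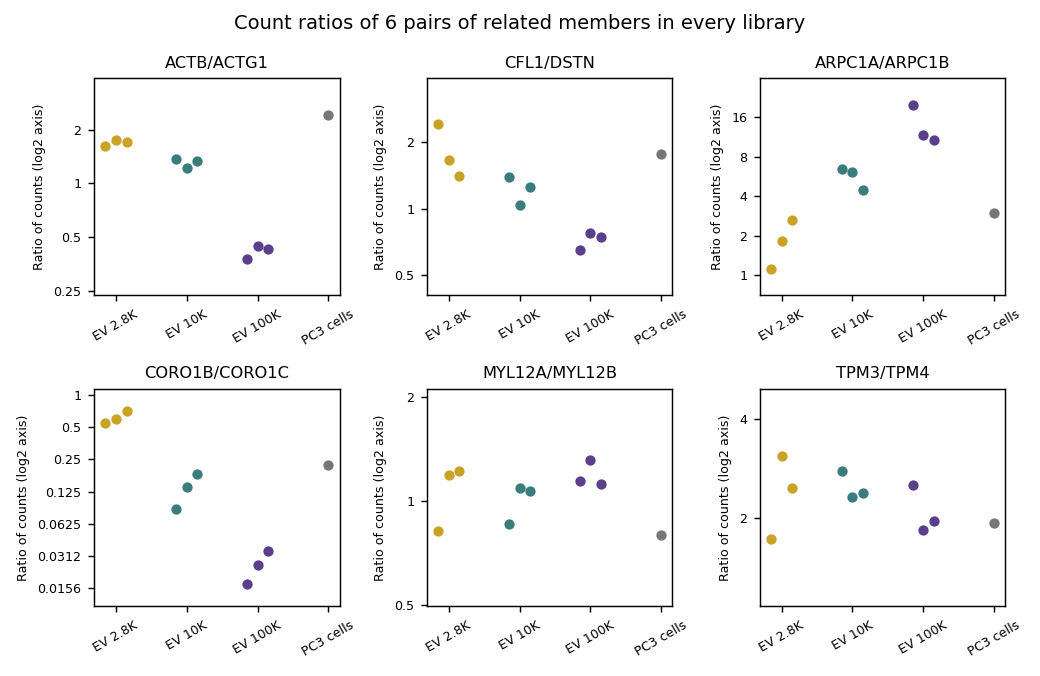
Each panel gives the ratio of counts of 2 related members (log2 y axis) in every library, as points by group. ACTB/ACTG1 drops to 0.379 to 0.446 in EV 100K, CFL1/DSTN and CORO1B/CORO1C fall and ARPC1A/ARPC1B rises along the series, while the MYL12A/MYL12B and TPM3/TPM4 points overlap between pellets.

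Split into the steps between neighbouring pellets, the fall of most members lay in the second. In EV 10K against EV 2.8K, 6 of 47 members (12.8%) were lower and 2 (4.26%) higher (edgeR). Of all genes tested, 2.22% were lower and 4.15% higher. Of abundant protein-coding genes (a mean of at least 20 CPM), these shares were 4.09% and 7.09%. The members' share higher was thus near that of all genes. The members' median log2 fold change was -0.21, against -0.01 over all genes. In EV 100K against EV 10K, 26 were lower and 1 higher, against 7.23% and 3.7% of all genes and 14.5% and 7.46% of abundant ones, with a median of -0.99 against 0.01. Every EV 100K library was below every EV 10K library for 36 members (17.3% of genes with at least 100 counts), while EV 10K was wholly below EV 2.8K for 12 (10.1%).

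The members that fell in EV 10K against EV 2.8K were 4 of the 5 crosslinkers and a pair of adhesion proteins, and without EV 10K set 2 the count fell to 3. They were ACTN4 (log2 fold change -1.46 ± 0.29, SE, edgeR adjusted p = 0.00442), ACTN1 (-1.38, adjusted p = 0.00122), FLNA (-1.34, adjusted p = 0.000789), FSCN1 (-0.89, adjusted p = 0.0261), VCL (-0.84, adjusted p = 0.00995) and TLN1 (-0.83, adjusted p = 0.0256). The call of FSCN1 was lost without EV 2.8K set 1 or EV 10K set 1 or 2 (adjusted p up to 0.154), that of VCL without EV 2.8K set 2 or EV 10K set 2 or 3 (up to 0.0849), and that of TLN1 in the fit on the 6 libraries or without EV 2.8K set 3 or any 1 EV 10K library (up to 0.134). ARPC1A (1.30, adjusted p = 0.00131) and CORO1C (1.48, adjusted p = 6.56e-05) were higher in EV 10K. Of the actins, ACTB (-0.57, adjusted p = 0.128) and ACTG1 (-0.21, adjusted p = 0.665) did not pass this step.

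At the step of EV 100K against EV 10K, the 4 lowest values were those of regulatory light chains and thymosins. MYL12B stood at -2.55 ± 0.22 on the log2 scale (SE; edgeR adjusted p = 2.49e-06), TMSB4X at -2.37 (adjusted p = 8.66e-06), MYL12A at -2.32 (adjusted p = 6.30e-06), TMSB10 at -2.21 (adjusted p = 1.25e-05), CORO1B at -2.05 (adjusted p = 0.000114) and ACTB at -2.04 (adjusted p = 1.36e-05). ARPC1A alone was higher (0.81 ± 0.22, adjusted p = 0.0231), a call lost with library totals only and without EV 10K set 1 or 3 or EV 100K set 1 or 3 (adjusted p up to 0.150). CORO1C (0.33, adjusted p = 0.303) and ACTG1 (-0.40, adjusted p = 0.272) did not pass. Of the 27 calls, 18 passed in all 17 alternatives, and 9 (ACTR2, ARPC1A, FLNA, FSCN1, MSN, MYH9, TPM1, VCL and ZYX) did not.

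Whether EV 10K lay above the midpoint of the outer pellets on the log2 scale was tested as a contrast chosen after seeing the data. It was above for 9 of 47 members and below for 0 (edgeR adjusted p below 0.05), against 1.11% and 0.0258% of all genes tested and 2.24% and 0.0146% of abundant protein-coding genes, and 20 members had an unadjusted p below 0.05. The 9 were TMSB4X (1.32 ± 0.19 above, SE, adjusted p = 0.00381), MYL12B (1.13), IQGAP1 (1.05), MYL12A (1.01), TMSB10 (0.88), ARPC3 (0.86), TAGLN2 (0.82), CFL1 (0.81) and DSTN (0.72). TMSB4X had CPM of 201, 317 and 250 in EV 2.8K, 236, 343 and 356 in EV 10K and 49.2, 67.2 and 65.1 in EV 100K, against 217 in the cells. Its slower pellets overlapped, and EV 100K lay below both. TMSB4X passed in all 16 alternatives and the other 8 did not, and the count was 5 without EV 10K set 1, EV 100K set 1 or EV 100K set 3, 3 without EV 10K set 2, 2 without EV 10K set 3 and 13 without EV 2.8K set 1. The crosslinkers ACTN1, ACTN4 and FLNA were not among the 9.

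**Figure D5:**
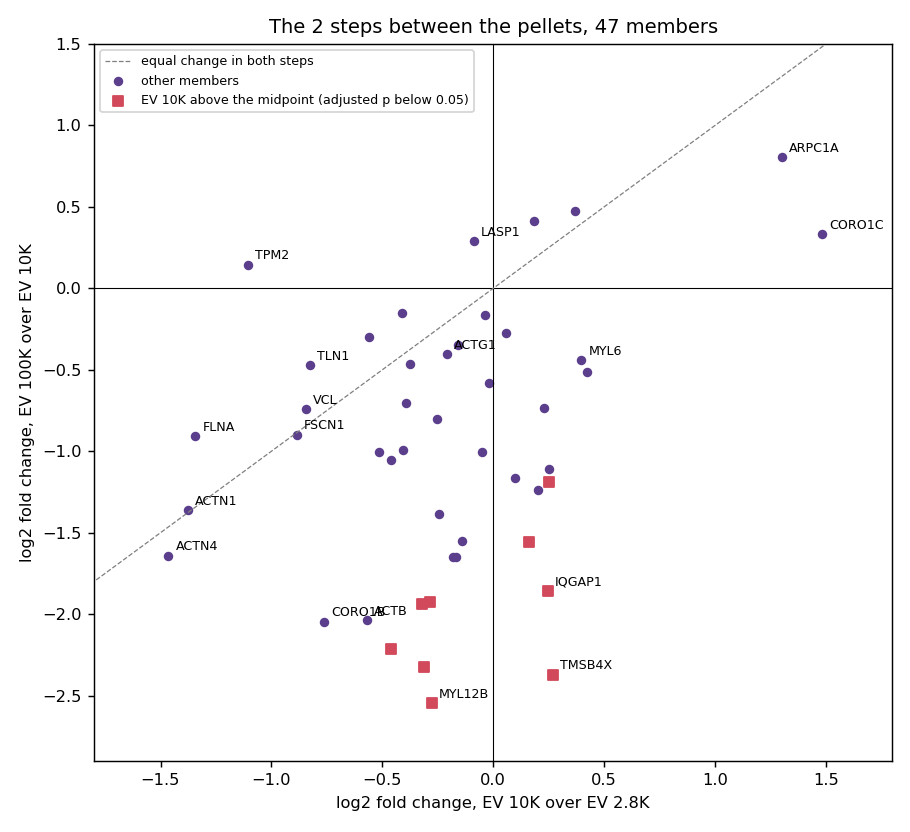
Each point is 1 of the 47 members, with the log2 fold change of EV 10K over EV 2.8K on the x axis and of EV 100K over EV 10K on the y axis, and a dashed line where both are equal. Both axes share EV 10K. Squares mark the 9 members whose EV 10K level was above the midpoint, such as TMSB4X at 0.27 and -2.37, while ACTN1 lies on the line at -1.38 and -1.36 and ARPC1A and CORO1C are the points at the right.

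The comparisons with whole cells rest on 1 cell library, whose spread is assumed to be that of the EV groups, and the 3 pellets share it. The fit on all 10 libraries had infinite prior degrees of freedom at the median, so that most genes took a fully pooled spread, and the size of its p-values rests on that. In EV 2.8K against the cells, 1 member was higher and 0 were lower (edgeR adjusted p below 0.05; 9 had an unadjusted p below 0.05), against 1.54% and 0.693% of 22370 genes tested and 3.94% and 1.75% of 6975 abundant protein-coding genes. That 1 member is 2.13% of the members, a share between these backgrounds. The count of members higher was 4 with RLE normalization, 5 with DESeq2, 3 without EV 2.8K set 1 and 2 without EV 2.8K set 3 or without mitochondrially encoded genes, and the count lower was 0 or 1 in the alternatives. The member called here was TMSB10 (1.64 ± 0.34 on the log2 scale, SE, adjusted p = 0.000186). The members' median was 0.13, against 0 over all genes.

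EV 10K against the cells had 4 members higher (8.51%) and 6 lower (12.8%). Of all genes, 2.82% were higher and 1.6% lower, and of abundant ones 6.94% and 4.46%. The members' share higher was thus near that of abundant genes. The members' median was 0.08, against -0.04 over all genes. The higher ones were ARPC1A (1.82, adjusted p = 0.00034), CORO1C (1.25, adjusted p = 0.00527), TMSB10 (1.19, adjusted p = 0.00912) and MYL6 (1.17, adjusted p = 0.00912) in edgeR's test. The lower ones were FLNA (-1.92, adjusted p = 2.74e-10), VCL (-1.55), ACTN4 (-1.53), ACTN1 (-1.47), MYH9 (-0.94, adjusted p = 0.0247) and ACTB (-0.92, adjusted p = 0.0208), the last 2 lost in 4 of 13 alternatives each.

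EV 100K against the cells had 24 members lower (51.1%) and 2 higher (4.26%). Of all genes, 5.46% were lower and 4.59% higher, and of abundant ones 16.1% and 12.1%. The members' share higher was thus near that of all genes. The members' median was -1.01, against -0.06 over all genes. The lowest were ACTN4 (-3.17 ± 0.29, SE, edgeR adjusted p = 4.33e-26), ACTB (-2.95, adjusted p = 1.91e-27), ACTN1 (-2.83) and FLNA (-2.81). ARPC1A (2.63 ± 0.42, adjusted p = 3.21e-08, 6.21-fold) and CORO1C (1.59 ± 0.34, adjusted p = 6.34e-05, 3.0-fold) were higher. TMSB10, higher than the cells in the slower pellets, was lower in EV 100K (-1.01, adjusted p = 0.00704), a call lost with DESeq2 (adjusted p = 0.0923). ACTG1 did not pass against the cells in any pellet (EV 2.8K 0.16, EV 10K -0.03 and EV 100K -0.43, adjusted p of 0.557 or above).

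Other genes of the actin pathway form a list of 81. In it, 32 (39.5%) were lower and 13 (16%) higher in EV 100K against EV 2.8K (edgeR), against 13.8% and 12% of all genes tested and 25.6% and 20.2% of abundant protein-coding ones, so that the share higher was below that of abundant genes. The median log2 fold change was -0.66, and the 8 integrins all had values below 0, with 5 called. Other groups of the list were mixed. The 12 focal adhesion genes had 3 lower and 3 higher (25% each), and the 8 formins had 1 lower and 1 higher. The integrin ITGA3 (-2.29, adjusted p = 7.69e-07), the filamin FLNC (-1.89, adjusted p = 4.36e-06) and the bundler PLS3 (-2.14, adjusted p = 4.88e-06) had the smallest p among the lower genes of the list. Of 10 kinases and phosphatases, 5 were higher and 1 lower, and the smallest p among all higher genes were those of ABI2, of the WAVE complex (1.63, adjusted p = 5.46e-05), the adhesion protein TNS3 (1.62, adjusted p = 6.50e-05) and PTK2, focal adhesion kinase (1.09, adjusted p = 8.81e-05). In EV 10K against EV 2.8K, 6 of the 81 (7.41%) were lower and 4 (4.94%) higher, against 2.22% and 4.15% of all genes and 4.09% and 7.09% of abundant ones, so that the share higher was near the background. For EV 100K against EV 10K, 20 (24.7%) were lower and 1 (1.23%) higher (PXN, paxillin, 0.89, adjusted p = 0.0164), against 7.23% and 3.7% of all genes and 14.5% and 7.46% of abundant ones. ANLN, anillin, which joins actin to the cytokinesis ring, had the smallest p of that step, at 233 CPM in EV 100K against 2883 CPM in EV 10K (-3.64, adjusted p = 3.14e-06).

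The members' transcripts were shorter than most, with a median coding length of 900 bases, against 1419 for the 11989 protein-coding genes tested, and a median GC content of 52.8% against 48.8%. Across the 47 members, the log2 fold change of EV 10K over EV 2.8K had Spearman correlations of -0.56 with GC content and -0.48 with coding length, against -0.16 and -0.14 across all protein-coding genes. For EV 100K over EV 2.8K the correlation with GC content was -0.37 across members and -0.19 across all genes, with 3′ UTR length 0.37 and 0.25, and with coding length -0.07 and 0.08. For EV 100K over EV 10K, the step with most of the fall, the members' correlations were close to those of all genes, at -0.11 against -0.12 with GC content and 0.22 against 0.23 with coding length. The largest at this step were 0.33 against 0.35 with transcript length and 0.32 against 0.29 with 3′ UTR length. These are descriptions across genes of the same libraries, and genes are not independent replicates.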

How the data were processed

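Libraries were made with a stranded SMARTer kit, per the labels' protocols. The submitters' processing notes name STAR 2.6.1d, featureCounts 1.6.3, cutadapt 2.7, bcl2fastq 2.19.1.403 and the build GRCh38. The deposited counts are whole numbers per gene, not normalized. The sources used here give no strand or multi-mapping setting. The members and all gene lists were chosen with earlier results of these data known.

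Symbols, exon lengths, coding sequences and coordinates came from GENCODE 29. Counts were tested with edgeR 4.0.16 under R 4.3.3 (low genes removed by filterByExpr, minimum count 10, TMM normalization, robust quasi-likelihood F-test, Benjamini-Hochberg adjustment over all genes tested, threshold 0.05) on the 9 EV libraries (15525 genes) or, against cells, all 10 (22370 genes). Total counts of 5424964 to 28735081 per library limit the precision of low members, and intervals cover counting error only. CPM used TMM factors from all 10 libraries, and were set per kilobase of exon where genes are compared. Paralog ratios were tested with exact permutation (Python 3.11.15) and figures drawn with matplotlib 3.10.9. A check of the edgeR functions on simulated counts required the right direction of called genes and only partial recovery of the changed ones.

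By rule, values per library are given for both actins, the member with the highest CPM per kilobase of each role group and the 4 lowest and 4 highest log2 fold changes in EV 100K against EV 2.8K. Members called against the majority are named, and so are up to 3 other pathway genes per direction by smallest p. TMSB4X is given for the added midpoint contrast. Alternatives were RLE normalization, library totals only, no mitochondrially encoded genes, no filter, DESeq2 1.42.0, other sets of libraries, the set number as a block and each library left out. No 2 libraries of a pellet agreed within sampling noise.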

Additional observations from a re-analysis of the deposited data

How the results depend on the processing

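No called member changed sign in any alternative. In EV 100K against EV 2.8K, 30 of 34 calls passed in all 17 alternatives, and 28 to 32 members were lower and 2 or 3 higher when 1 library was left out. In the same order, these ranges were 3 to 6 and 2 or 3 for EV 10K against EV 2.8K, and 20 to 29 and 0 or 1 for EV 100K against EV 10K, where 0 were higher with library totals only. Against the cells they were 0 or 1 and 1 to 3 for EV 2.8K (4 higher with RLE normalization, 5 with DESeq2 and 2 without mitochondrially encoded genes), 4 to 7 and 4 or 5 for EV 10K, and 22 to 27 and 2 to 4 for EV 100K. For the midpoint contrast, 2 to 13 members were higher and 0 lower.

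Counts over all genes varied too. In EV 100K against EV 2.8K, 1502 to 2355 genes were lower (main result 2148) and 1305 to 2334 higher (1865). In EV 10K against EV 2.8K, 167 to 638 were lower (345) and 362 to 997 higher (645). In EV 100K against EV 10K, 703 to 1578 were lower (1122) and 266 to 1199 higher (575). Against the cells, 100 to 310 were lower (155) and 247 to 479 higher (344) in EV 2.8K, 204 to 622 (359) and 503 to 900 (631) in EV 10K, and 806 to 1606 (1221) and 805 to 1368 (1026) in EV 100K. For the midpoint, 20 to 457 were higher (173) and 0 to 157 lower (4).

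Log2 fold changes near 0 changed sign. In EV 100K against EV 2.8K, MYL6 was at 0.00907 with RLE normalization, at 0.00902 with DESeq2 and at -0.0738 to 0.0657 when 1 library was left out (0.0119 and 0.0131 without EV 10K set 3 or 2), and CAPZA2 at -0.187 to 0.0507 (0.0115 without EV 2.8K set 3). ACTG1 in EV 10K against EV 2.8K was at -0.276 to 0.0594. As shares of protein-coding counts, the members held 2.94% in EV 2.8K, then 2.21% in EV 10K and 1.18% in EV 100K, against 3.37% in the cells. Without mitochondrially encoded genes the shares were 2.87% in EV 2.8K and 3.31% in the cells, and without ACTB 2.15, 1.64 and 2.47% in EV 2.8K, EV 10K and the cells. When 1 library was left out, the pellets' shares of all counts were 2.56 to 2.68, 1.88 to 2.04 and 0.956 to 1.10%. The causes of these changes were not tested.

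Libraries of the same set number deviated together only weakly, with correlations of -0.0067 to 0.0417. Between different set numbers the correlations were -0.0338 to 0.0242. All were below a threshold of 0.1, so set numbers were not treated as pairs. With the replicate block, 0 of 15 paralog ratios passed after adjustment over the pairs. Permuting within sets gives no p below 0.0278, so a few pairs at that floor could not pass the adjustment. When 1 library was left out, 4 or 5 passed. No paired analysis was possible for the cells because their library has no set number. Depth limits MYL9 most, with 9 counts in 1 library.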
